A study of Mus musculus with 6 samples.

Results

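The variable (V) gene segments of the T cell receptor were followed in double negative T (DNT) cells cultured with or without IL-33. Members were all genes of the deposited table whose GENCODE symbol begins with Trav, Trbv, Trdv, Trgv or Tcrg-V, which gave 141 of the 26128 genes listed. These are 100 alpha, 29 beta, 7 gamma and 5 delta chain segments, of 128, 35, 7 and 6 that the annotation names. To make DNT cells, CD4+CD25- T cells of adult C57BL/6 mice were cultured with mature dendritic cells of DBA/2 mice and IL-2, and CD3+ cells without surface NK1.1, CD4 and CD8 were sorted. All were then kept for 48 h with beads that carry antibodies to CD3 and CD28. The control group (n = 3) had no IL-33, and the IL-33 group (n = 3) received it at 50 ng/ml. Neither the labels nor the methods state whether replicates came from separate mice, conversions or wells, so p-values measure only the spread between these libraries, which may be technical.

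A T cell receptor chain is made when a V segment is joined to a J segment, with a D segment between them in beta and delta chains, and is spliced to a constant region. The V segment carries most of the antigen-binding face of the chain, and a T cell clone keeps the joined segments it was made with, so the mix of V segment transcripts in a population is a coarse view of its repertoire. Alpha chains pair with beta chains and gamma chains with delta chains. The delta locus lies inside the alpha locus, and some V segments, with dv after their alpha name, can join either chain. Joined gamma genes are also found in many cells that bear alpha and beta chains. The superantigen of the Mtv-7 provirus, which DBA/2 mice carry, is known to engage receptors by their beta V segment.

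The counts per library were even, from 20256342 to 22336050, of which the V segments held 10118 to 11374, or 486 to 521 in 1000000. Of the 141 members, 107 had at least 10 counts in all, 94 had a count in each of the 6 libraries and 19 are annotated as pseudogenes. The filter on low counts left 76 for the test, made up of 48 alpha, 20 beta, 6 gamma and 2 delta segments. Their median level was 1.62 CPM (counts in 1000000 of the scaled library), with 13.9 CPM for the beta and 1.41 CPM for the alpha segments tested, beside 18.4 CPM over all 14671 genes tested. Most markers of T cells were abundant, with Cd3g, a signalling chain of the receptor complex, at 706 ± 36.6 CPM (SD, n = 3) in the control libraries. Cd5 was the lowest of the 12 listed, at 6.68 ± 0.266 CPM (SD, n = 3). Cd4 transcripts were near the limit of detection, at 0.934 ± 0.183 CPM (SD, n = 3). Cd8a, which encodes a chain of the CD8 coreceptor, stood at 545 ± 13.6 CPM (SD, n = 3) and Klrb1c, which encodes NK1.1, at 33.5 ± 2.57 CPM (SD, n = 3), although the sort before the culture had removed cells with either protein.

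The alpha segments lie on chromosome 14 between 52427928 and 53977678, the beta segments on chromosome 6 between 40891229 and 41558452, the gamma segments on chromosome 13 between 19178024 and 19340454, and the delta segments on chromosome 14 between 53881612 and 54149294 (GRCm38). How far a read can name a segment differs between the chains. Every 50-base stretch of a segment's transcript was looked up among all GENCODE transcripts. In 23 of the 29 beta segments all of these stretches were found in no other gene. That held for 10 of the 100 alpha segments, while 51 had under 50% of their stretches to themselves and 20 had none. The alpha locus of this strain holds repeated blocks, whose copies carry a d, an n or no letter in the symbol. Counts of single alpha segments are therefore uncertain where copies are alike, and those of most beta segments far less so. Exceptions in the beta chain were Trbv4 and Trbv5, with 27.9% and 22.6% of their stretches unique. Both overlap the gene 5830405F06Rik on the same strand and had 0 to 7 counts per library, so their counts are uncertain.

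The segments on which the results turn are shown by the last 60 coding bases of the germline segment, the end that is joined to D or J, with capitals marking the last cysteine codon in frame. The beta segments are the pair with the highest counts of their chain and the close relative of the first.
Trbv12-2 (chr6:41119305-41119364, + strand): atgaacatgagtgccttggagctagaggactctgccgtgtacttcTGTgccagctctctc
Trbv12-1 (chr6:41114008-41114067, + strand): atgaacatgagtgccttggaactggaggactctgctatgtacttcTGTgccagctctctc
Trbv3 (chr6:41048769-41048828, + strand): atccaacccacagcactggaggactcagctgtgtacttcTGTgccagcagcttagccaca
Trbv12-2 and Trbv12-1 differ at 4 of these 60 bases and share 88.2% of their aligned coding bases. In the 50-base search Trbv12-1 and Trbv3 were unique throughout, and Trbv12-2 in 98.8% of stretches.

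The alpha segments shown are Trav15-1-dv6-1, the most abundant alpha segment without IL-33, with its nearest listed copy and another member of its family, and Trav8d-2.
Trav15-1-dv6-1 (chr14:53560188-53560247, + strand): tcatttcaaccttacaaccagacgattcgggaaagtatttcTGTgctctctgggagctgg
Trav15n-1 (chr14:53174837-53174896, + strand): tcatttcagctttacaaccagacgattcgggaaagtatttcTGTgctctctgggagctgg
Trav15-2-dv6-2 (chr14:53649935-53649994, + strand): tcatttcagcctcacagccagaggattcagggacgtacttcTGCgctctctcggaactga
Trav8d-2 (chr14:53042832-53042891, + strand): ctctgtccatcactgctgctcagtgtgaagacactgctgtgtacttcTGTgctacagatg
Trav15-1-dv6-1 differs from Trav15n-1 at 2 and from Trav15-2-dv6-2 at 12 of these 60 bases, and shares 95.4% and 75.3% of its aligned coding bases with them. Of the stretches in its longest transcript 91.9% were unique, and 72.9% were for Trav8d-2.

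The gamma segments shown are the leading pair, which held nearly all gamma V counts.
Trgv2 (chr13:19336573-19336632, - strand): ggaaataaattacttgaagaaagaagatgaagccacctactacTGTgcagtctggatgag
Tcrg-V1 (chr13:19340395-19340454, + strand): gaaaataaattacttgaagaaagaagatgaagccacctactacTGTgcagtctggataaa
They differ at 3 of these 60 bases and share 94.9% of their aligned coding bases, although 93.0% of the 50-base stretches of Trgv2 and 75.4% of those of Tcrg-V1 were unique.

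The beta chain repertoire was broad, and 17 of its segments each held over 1% of the beta V counts in every library. Trbv12-2 led in all 6 libraries. It held 14.8, 15.8 and 15.4% of beta V counts in the control libraries and 15.7, 16.7 and 16.1% with IL-33. Trbv3 came next, at 10.5, 10.4 and 9.94% without IL-33 and 12.1, 11.3 and 10.9% with IL-33, so its groups did not overlap. Trbv1 went from 8.21, 8.39 and 9.23% to 7.12, 7.45 and 7.22%, also without overlap. Trbv16 held 8.51, 7.45 and 7.63% in the control libraries and 7.18, 7.45 and 7.28% with IL-33, where one IL-33 library lay at the level of a control library. Trbv12-1, Trbv2, Trbv19, Trbv13-1, Trbv13-2 and Trbv17 followed with mean shares from 6.19 down to 5.03%. A share in a single library has a 95% Wilson interval of at most ± 0.952 percentage points in the beta chain, which covers counting error only.

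**Figure D1:**
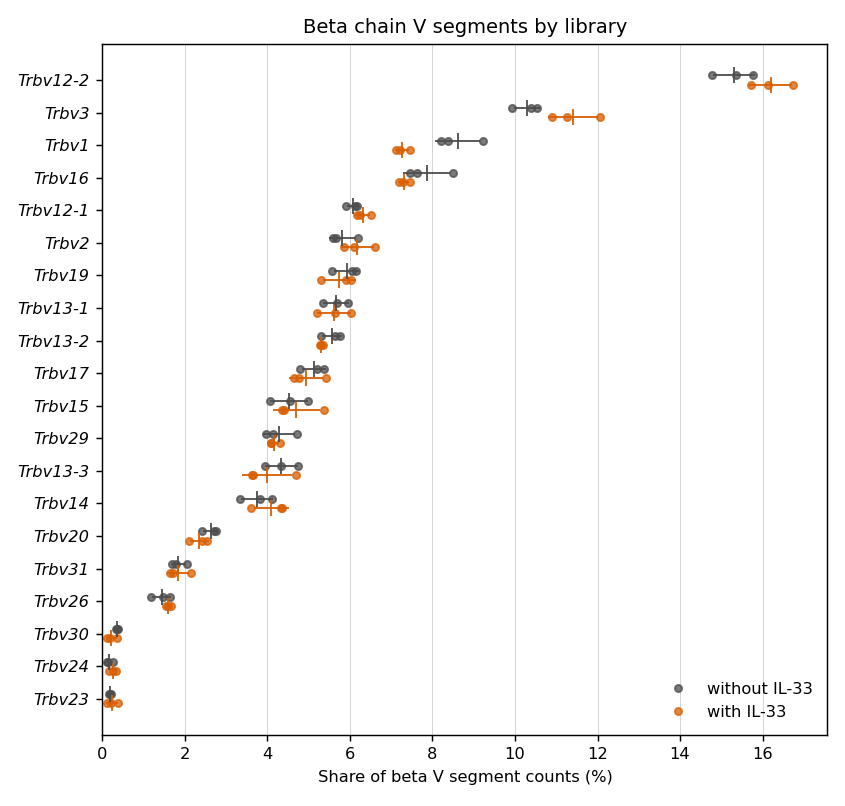
Share of the beta V segment counts (%) for the 20 leading segments. Each point is a library, grey without and orange with IL-33, and ticks with lines give the mean and SD (n = 3). Trbv12-2 stands apart near 16%, Trbv3 near 11%, a long run of segments lies between 4 and 8%, and the last 3 are under 1%.

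Longer gene models collect more reads, so levels of different segments were compared per length, as a share of counts per base. On this scale Trbv12-2 kept the lead with 16.3% and Trbv3 the second place with 9.51%, and the range of Trbv12-2 over the 6 libraries was clear of all others. The range of Trbv3, from 8.69 to 10.6%, lay above that of Trbv16 but overlapped that of Trbv1, which reached 8.81%. Trbv16 and Trbv1, with means of 7.60 and 7.59%, overlapped each other and lay above the segments that follow. From Trbv13-2 at 6.37% to Trbv19 at 4.11% ran 10 segments in which each overlapped the next. Trbv20 at 2.96% lay below these without overlap, and Trbv31 at 1.75% and Trbv26 at 1.65% formed the next overlapping pair. Trbv30, Trbv24 and Trbv23 were at or under 0.340%.

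The 4 beta segments known to respond to the Mtv-7 superantigen, Trbv19, Trbv29, Trbv13-3 and Trbv17, were expressed at ordinary levels in these cells, which had met DBA/2 dendritic cells. Trbv19 had 349, 346 and 355 counts in the control and 344, 364 and 383 in the IL-33 libraries. Their summed level was 55.0 ± 1.84 CPM without and 55.4 ± 1.67 CPM with IL-33 (SD over n = 3 per group). None of the 4 passed the test in edgeR, DESeq2 or limma-voom, with adjusted p from 0.771 to 0.928 in edgeR, none had an unadjusted p under 0.05, and the groups overlapped in each. These data hold no library of the cells before conversion, so no change against the starting cells can be read.

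The alpha chain was spread more widely, with 79 to 83 segments detected per library from 1725 to 1997 alpha V counts. Trav15-1-dv6-1 was the leading segment over the 6 libraries, and of the alpha segments its share differed most between the groups. It held 11.1, 11.1 and 9.16% of alpha V counts without IL-33 and 6.63, 6.64 and 5.89% with it, so every control library lay above every IL-33 library. Trav12-2 held 6.14, 5.34 and 6.11% without IL-33 and 6.14, 5.22 and 6.69% with IL-33, and took the first place in 1 IL-33 library. Trav16n (mean 4.44%), Trav13-1 (3.68%), Trav14-2 (3.67%), Trav16 (3.55%), Trav5-4 (3.22%), Trav3-3 (2.82%), Trav17 (2.62%) and Trav14-1 (2.44%) completed the first 10. Counting error alone gives an alpha share an interval of up to ± 1.49 percentage points in a library (Trav15-1-dv6-1). For these 8 it was up to ± 0.986 points, so single libraries do not settle their full order. The ends of the order could be apart. In control replicate 1 the interval was 3.59 to 5.54% for Trav16n and 0.937 to 2.06% for Trav14-1. Trav16 and Trav16n share 97.7% of their aligned coding bases, and their split is uncertain. All copies of Trav16 together held 8.62 ± 0.416% without and 9.18 ± 0.502% with IL-33 (SD over n = 3 per group).

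**Figure D2:**
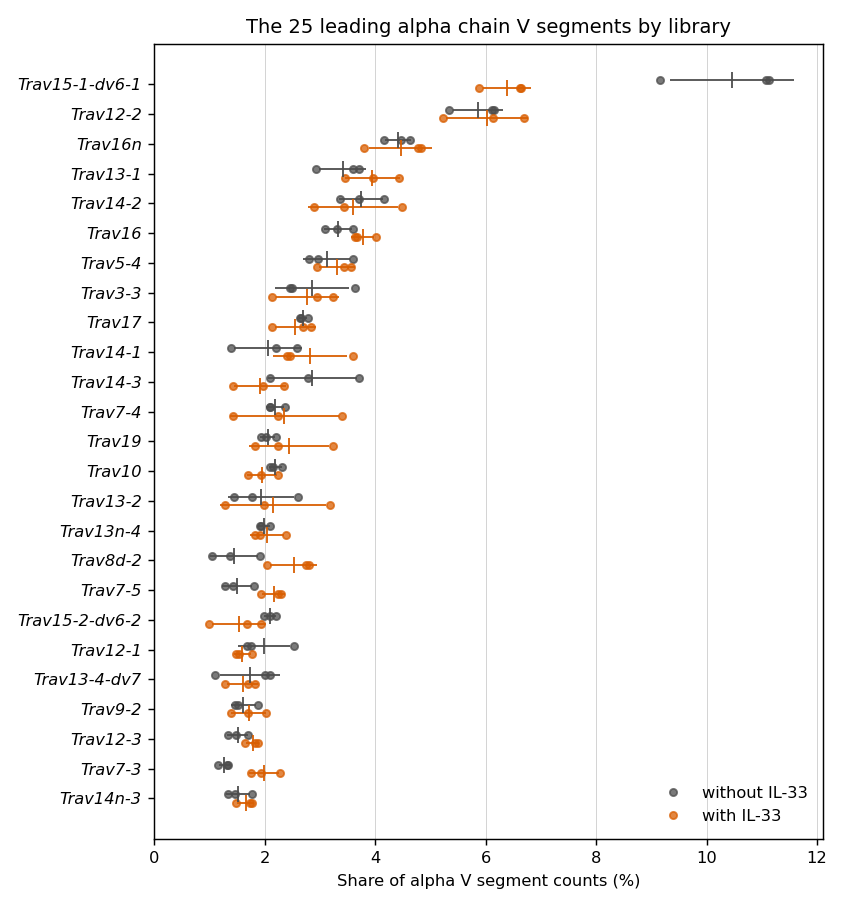
Share of the alpha V segment counts (%) for the 25 leading segments. Each point is a library, grey without and orange with IL-33, and ticks with lines give the mean and SD (n = 3). Trav15-1-dv6-1 fell from a mean of 10.5 to 6.39%, while most other segments overlap between the groups.

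Grouped by family, with the 7 listed Trav15 segments together, Trav15 held 12.9 ± 1.12% of alpha V counts without and 8.04 ± 0.402% with IL-33 (SD over n = 3 per group). Trav14, Trav13 and Trav12 each held 9.80 to 11.2% in either group. Trav8 went from 5.11 ± 0.839 to 6.82 ± 0.218% and Trav7 from 8.18 ± 0.648 to 9.77 ± 0.940% (SD over n = 3 per group). These shares are parts of 1 whole, so a smaller part of Trav15 leaves larger parts to the others.

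The evenness of use was summarised by the inverse Simpson index, the number of equally used segments that would give the same sum of squared shares. For beta it was 13.2 ± 0.188 without and 12.8 ± 0.185 with IL-33, and for alpha 31.7 ± 1.52 and 37.3 ± 1.70 (SD over n = 3 per group). The alpha values ranged from 30.4 to 33.4 in the control and from 35.3 to 38.3 in the IL-33 libraries. With Trav15-1-dv6-1 left out, a step chosen after seeing the data, they were 39.0 ± 0.971 and 38.6 ± 1.89 (SD over n = 3 per group) and overlapped, so the gap in alpha evenness rested on that segment.

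Of the V segments of the semi-invariant T cell lineages, Trav11 was scarce. Trav1 held a mean of 1.03% of alpha V counts without and 0.686% with IL-33. Trav11, which joins Traj18 in natural killer T cells, had 2 counts in 1 IL-33 library and 0 in the other 5, where 3 counts would be 0.150 to 0.174% of alpha V counts. None of its 50-base stretches was unique, and nearly all are shared with its copy Trav11d, which had 3, 1 and 2 counts without IL-33 and 2 in each IL-33 library. The 3 listed Trav11 copies together had 4, 2 and 2 counts without IL-33 and 6, 3 and 2 with IL-33. Trav1, which joins Traj33 in mucosal-associated invariant T cells, had 18, 19 and 20 counts without IL-33 and 13, 16 and 10 with IL-33. These groups did not overlap, but the difference did not pass the test (edgeR, adjusted p = 0.336).

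In the gamma chain the transcripts of 1 segment prevailed. Trgv2 had 84.7, 81.8 and 84.0% of gamma V counts without IL-33 and 82.1, 82.5 and 82.8% with it. Tcrg-V1 followed with a mean of 12.3% and Tcrg-V4 with 2.23%. Each V segment of this locus lies in a cluster with its own constant gene, and the levels per length of V segments and constant genes came in the same order over the clusters. Trgv2, of the Tcrg-C2 cluster, had 225 CPM per kb of transcript without IL-33, and Tcrg-C2 had 255. Tcrg-V1 had 41.6 beside 88.5 for Tcrg-C4 of its cluster, and the 4 segments of the Tcrg-C1 cluster together 12.7 beside 53.5 for Tcrg-C1. Tcrg-V3 had 3.22 CPM per kb and Tcrg-C3 2.57. Another gene runs across the segments of the Tcrg-C1 cluster on the opposite strand, and their counts are uncertain because the strand setting of the counting is not given.

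Delta V segments were rare, with 47 to 79 counts per library. Trdv1 held a mean of 58.6% of them, with 42, 29 and 42 counts without IL-33 and 37, 25 and 35 with IL-33. Trdv4, which also overlaps a gene on the opposite strand, had 18, 8 and 24 counts without IL-33 and 8, 16 and 16 with IL-33. Trdv5, which overlaps the delta constant gene Trdc on the other strand, had 14, 14 and 10 counts without IL-33 and 2, 5 and 7 with IL-33, too few to be tested. Trdc itself had 550, 513 and 500 counts in the control libraries. The 9 listed alpha segments with dv in their symbol, which either chain can use, summed to 16.2 ± 0.863 CPM without and 12.8 ± 1.28 CPM with IL-33 (SD over n = 3 per group). They include Trav15-1-dv6-1, which alone went from 9.10 to 5.61 CPM. Of the 7 tested, 4 had a positive and 3 a negative log2 fold change.

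For most V segments no difference with IL-33 passed the test. Of the 76 tested, 5 had an adjusted p under 0.05 in edgeR's quasi-likelihood test, 3 higher and 2 lower with IL-33, where 27.5% of all genes tested did (13.6% higher and 13.9% lower). Past both thresholds, an adjusted p under 0.05 and a fold change of at least 1.5, were 2 of them, beside 4.87% of all genes tested. Groups did not overlap in 14 of the 76, beside 38.9% of all genes tested. The median level was 1.62 CPM for the 76 and 18.4 CPM for all genes tested, so the smaller part called does not show steadier levels. Of the 20 beta segments tested, with a median of 13.9 CPM, 2 had an adjusted p under 0.05, both higher with IL-33. The median log2 fold change was 0.04 over the 76 segments and -0.00063 over all genes tested. The spread of these segments was wide, with a median biological coefficient of variation between replicates of 0.164, beside 0.0755 for the beta segments alone and 0.0658 for all genes tested. Without IL-33 replicate 1 the count with an adjusted p under 0.05 was 2 and that past both thresholds 1, and without IL-33 replicate 3 the latter was 4.

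**Figure D3:**
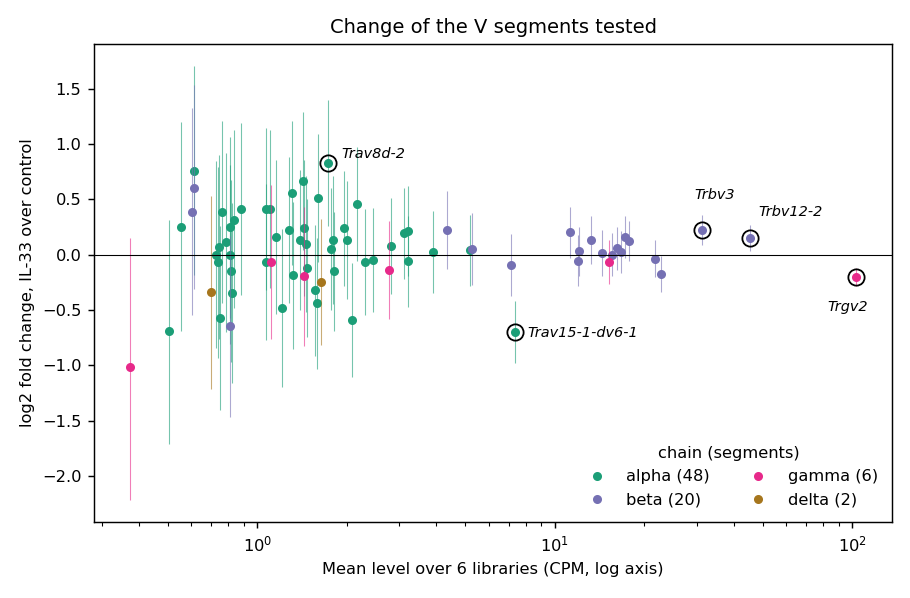
Log2 fold change of each of the 76 V segments tested (IL-33 over control, with its 95% interval) against its mean level over 6 libraries (CPM, log axis), by chain. Circles mark the 5 segments with an adjusted p under 0.05. Trav15-1-dv6-1 fell and Trav8d-2 rose by more than 1.5-fold, and Trgv2, Trbv3 and Trbv12-2 moved less at higher levels.

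Trav15-1-dv6-1 had the smallest adjusted p among the V segments. It had 192, 201 and 183 counts in the control libraries and 121, 131 and 110 with IL-33, with no overlap. Its level fell from 9.10 ± 0.771 to 5.61 ± 0.649 CPM (SD over n = 3 per group), for a log2 fold change of -0.70 (SE 0.14, edgeR adjusted p = 3.2e-05). It passed the test in all 14 alternative fits, with log2 fold changes from -0.78 to -0.61. Trav15-2-dv6-2, a relative chosen with its values in view, had 38, 36 and 42 counts without IL-33 and 18, 33 and 36 with IL-33, and did not pass (edgeR adjusted p = 0.287). Fewer cells with a segment and less of its RNA per cell cannot be told apart in these libraries, here or for any other segment.

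Trgv2, the V segment with the most counts of all, had 2407, 2144 and 2451 counts without IL-33 and 2018, 2048 and 2134 with IL-33. Its level fell from 110 ± 4.18 to 95.8 ± 1.93 CPM (SD over n = 3 per group), for a log2 fold change of -0.20 (SE 0.04, edgeR adjusted p = 3.5e-05). Set against the gamma V counts alone, it did not pass (-0.02, adjusted p = 0.791), and it makes up most of those counts. The call was kept in the other 13 alternative fits.

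Trbv3 had 608, 585 and 634 counts in the control libraries and 785, 694 and 692 with IL-33. It rose from 28.8 ± 0.142 to 33.6 ± 2.71 CPM (SD over n = 3 per group), for a log2 fold change of 0.22 (SE 0.07, edgeR adjusted p = 0.0102). Without IL-33 replicate 1, its highest library, it did not pass (0.16, adjusted p = 0.139), nor against the beta V counts alone (0.15, adjusted p = 0.178). Trbv12-2 rose from 853, 888 and 980 counts to 1022, 1031 and 1026, a log2 fold change of 0.15 (SE 0.06, edgeR adjusted p = 0.0443). This call was lost in 9 of 14 alternative fits, with adjusted p from 0.0323 to 0.457 over the 14. Among these, adjusted p was 0.239 without control replicate 1, 0.0635 without control replicate 2, 0.0862 without IL-33 replicate 1 and 0.161 without IL-33 replicate 2.

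Trav8d-2 had 33, 25 and 21 counts without IL-33 and 51, 54 and 38 with IL-33, with no overlap. It rose from 1.25 ± 0.299 to 2.22 ± 0.452 CPM (SD over n = 3 per group), for a log2 fold change of 0.83 (SE 0.29, edgeR adjusted p = 0.0204). It did not pass in DESeq2 (adjusted p = 0.0819), within the alpha V counts (0.0533), without control replicate 2 (0.0520) or 3 (0.109), or without IL-33 replicate 1 (0.0712) or 2 (0.107), and over all 14 fits adjusted p ran from 0.0102 to 0.109. With the 3 copies of this segment summed the log2 fold change was 0.53. Trbv1 went the other way from Trbv3, with 474, 472 and 589 counts without IL-33 and 463, 459 and 459 with IL-33, and missed the threshold (edgeR adjusted p = 0.0975). It passed in 2 alternatives, within the beta V counts (adjusted p = 0.0346) and without control replicate 1 (0.0467).

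Of the totals of the 4 chains, that of gamma alone had no overlap between the groups. Summed gamma V levels were 132 ± 2.63 CPM without and 116 ± 2.05 CPM with IL-33 (SD over n = 3 per group), ranging from 129 to 134 and from 114 to 118. Summed delta V levels were 3.28 ± 0.592 and 2.38 ± 0.203 CPM, with ranges that met at 2.61 CPM. Summed beta V levels were 280 ± 9.97 and 294 ± 8.20 CPM, which overlapped, and summed alpha V levels 87.2 ± 5.24 and 87.7 ± 5.55 CPM (SD over n = 3 per group). As parts of all V counts, beta held 55.4, 55.6 and 56.1% without IL-33 and 60.03, 57.8 and 58.5% with IL-33. Gamma held 27.3, 25.9 and 25.7% without IL-33 and 22.7, 23.3 and 23.7% with IL-33. On this scale the groups did not overlap for beta or for gamma. These are parts of 1 whole and do not move independently. Whether the larger beta part goes beyond what the smaller gamma part leaves was not tested.

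Among the constant genes, to which the V segments are spliced, that of the delta chain and 3 of the 4 of the gamma chain were lower with IL-33. Trac, Trbc1 and Trbc2, the constant genes of the alpha and beta chains, did not pass the test (edgeR adjusted p = 0.143, 0.146 and 0.823). Trbc2 had 5124, 5542 and 5498 counts without IL-33 and 5820, 5495 and 4541 with IL-33, so that IL-33 replicate 3 lay below the other 5. Trdc, the delta constant gene, had 340, 313 and 325 counts with IL-33 and fell from 24.7 ± 1.63 to 15.1 ± 0.615 CPM (SD over n = 3 per group), for a log2 fold change of -0.70 (SE 0.09, edgeR adjusted p = 7.1e-11). Tcrg-C1, Tcrg-C4 and Tcrg-C2 fell with log2 fold changes of -0.29, -0.24 and -0.17 (edgeR adjusted p = 4.3e-05, 3.3e-06 and 1.9e-05), and these calls and that of Trdc held in all 13 alternative fits made for them. Tcrg-C3, with 31 to 40 counts, did not pass (edgeR adjusted p = 0.981). Of the CD3 and zeta chains that carry the signal, Cd3d, Cd3e and Cd247 did not pass (edgeR adjusted p = 0.949, 0.591 and 0.841). Cd3g rose with a log2 fold change of 0.13 (edgeR adjusted p = 0.0336), which was lost in DESeq2 (0.0879) and without control replicate 3 (0.0538). In all, 1 of the 12 genes of the receptor complex was higher and 4 were lower, beside 13.6 and 13.9% of all genes tested.

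**Figure D4:**
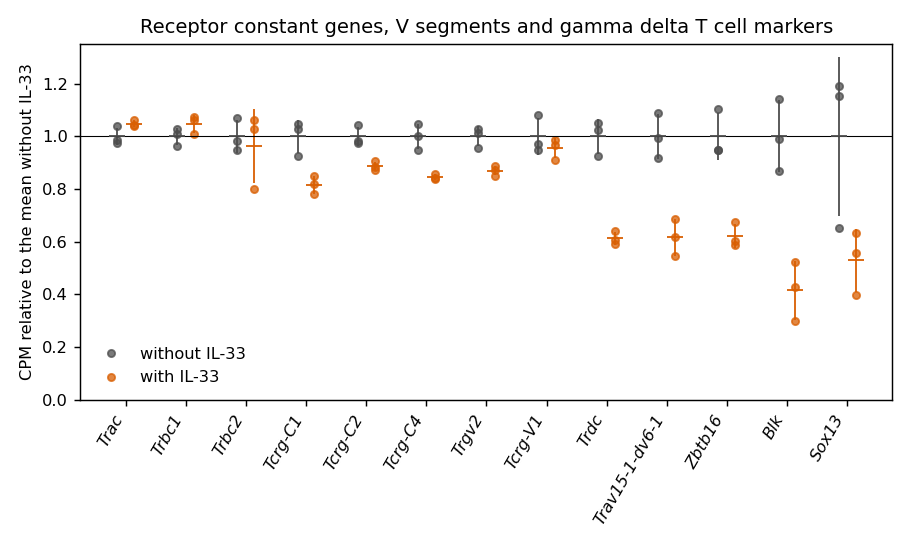
CPM of receptor constant genes, V segments and gamma delta T cell markers in each library, relative to the mean of the control libraries. Points are libraries, grey without and orange with IL-33, and bars give the mean and SD (n = 3). Trac and Trbc1 lie near 1 in both groups. Every IL-33 value of the gamma genes shown (Tcrg-C1, Tcrg-C2, Tcrg-C4, Trgv2 and Tcrg-V1) lies below 1. Those of Trdc, Trav15-1-dv6-1, Zbtb16 and Blk lie below these gamma genes. Not shown are, among others, the remaining gamma V segments, Il23r, Cd163l1 and Tcrg-C3 (mean 1.67 CPM without and 1.68 CPM with IL-33).

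Most of the listed genes that mark gamma delta T cells were lower with IL-33. Of the 9 on the list, all tested, 7 had an adjusted p under 0.05 in edgeR and each of these was lower, beside 13.9% of all genes tested. The other 2, Il23r and Cd163l1, were not past the threshold. The list was chosen with earlier results of these data known. It leaves out Tcrg-C3, the gamma constant gene that did not pass (log2 fold change 0.013, edgeR adjusted p = 0.981). On the list are the constant genes Trdc, Tcrg-C1, Tcrg-C2 and Tcrg-C4. Of the others, Zbtb16, which encodes the transcription factor PLZF of innate-like T cells, had 565, 465 and 501 counts without IL-33 and 350, 305 and 315 with IL-33, a log2 fold change of -0.69 (edgeR adjusted p = 4.0e-10). Blk, a Src family kinase, had 62, 78 and 73 counts without IL-33 and 31, 21 and 39 with IL-33, a log2 fold change of -1.26 (edgeR adjusted p = 2.0e-05). Sox13, a transcription factor of gamma delta T cells, had 40, 21 and 40 counts without IL-33 and 19, 21 and 14 with IL-33. Its call (edgeR adjusted p = 0.0367) was lost in 8 of 13 alternative fits, with adjusted p of 0.159 without control replicate 1, 0.143 without control replicate 3, 0.0712 without IL-33 replicate 1 and 0.148 without IL-33 replicate 3. The summed level of the list ranged from 417 to 440 CPM without and from 353 to 366 CPM with IL-33. Its part in the lower Trav15-1-dv6-1 and gamma V levels was not tested.

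Among the markers of invariant T cells 3 of the 4 tested were lower at an adjusted p under 0.05 in edgeR, beside 13.9% of all genes tested. These were Klrb1c, Cd160 and Zbtb16, the last of which is also on the gamma delta list and counted there. The call of Cd160 was lost without control replicate 3 (edgeR adjusted p = 0.0845) and without IL-33 replicate 1 (0.0633). The J segments on this list were too low to be tested. Traj18 had 7, 7 and 8 counts without IL-33 and 18, 9 and 13 with IL-33, which did not overlap, and Traj33 had 1, 1 and 5 and then 12, 7 and 1, which did. Klrb1c had 741, 712 and 669 counts without IL-33 and 551, 513 and 595 with IL-33, a log2 fold change of -0.39 (edgeR adjusted p = 7.1e-06). The coreceptor genes also moved. Cd8a fell from 11453, 11394 and 11732 counts to 8826, 8235 and 8830, a log2 fold change of -0.45 (edgeR adjusted p = 2.4e-26), and Cd8b1 rose from 202, 232 and 178 counts to 362, 379 and 312, a log2 fold change of 0.75 (edgeR adjusted p = 6.2e-08). Cd4 had 21, 22 and 16 counts without IL-33 and 11, 8 and 5 with IL-33. Its call (edgeR adjusted p = 0.0233) was lost without control replicate 1 (0.0725) or 2 (0.102) and without IL-33 replicate 2 (0.0606) or 3 (0.125). Of the 12 T cell markers, 2 were higher (Cd3g and Cd28) and 3 lower (Lck, Cd5 and Lat) with IL-33 at an adjusted p under 0.05, beside 13.6 and 13.9% of all genes tested. The call of Cd5 was lost in DESeq2 (adjusted p = 0.0914), without control replicate 3 (0.0935) and without IL-33 replicate 1 (0.155) or 3 (0.0641).

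Transcripts of the enzymes particular to V(D)J recombination were near 0. Rag1, a subunit of the recombinase, had 2 counts in 1 control library and 0 in the other 5, and Dntt, which adds bases at the joints, had 0 to 5 counts. Of the 7 genes of V(D)J recombination tested, Prkdc, a kinase of DNA end joining, was lower with IL-33 (log2 fold change -0.26, edgeR adjusted p = 4.8e-07) and the other 6 did not pass, so 1 of 7 was lower beside 13.9% of all genes tested. Markers of B cells summed to 16.6 to 18.0 CPM without and 17.5 to 22.9 CPM with IL-33, and none of the 4 tested passed in edgeR, DESeq2 or limma-voom, with 1 in edgeR at an unadjusted p under 0.05. Markers of dendritic and myeloid cells summed to 100 to 103 CPM without and 76.0 to 83.9 CPM with IL-33, with most of the control level from Itgax, which T cells can also express. Flt3, Siglech, H2-Aa, Csf1r and Lyz2 had 0 to 13 counts per library. The 6 tested were not so scarce, with at least 20 counts each in every library. H2-Ab1 among them stood at 24.8 CPM without and 30.3 CPM with IL-33. Of the 6 tested, Batf3 and H2-Ab1 were higher and Itgax and Cd74 lower with IL-33, beside 13.6 and 13.9% of all genes tested. The part of these markers in the V segment values was not tested.

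The libraries were close to each other in their use of segments. For every pair of libraries the absolute differences in share were summed over segments and divided by 2, which gives the percentage of counts that would have to change segment to make the pair equal. In the beta chain this was 3.43 to 4.44% between control libraries, 3.35 to 4.70% between IL-33 libraries and 3.46 to 6.09% across the groups, so the ranges overlapped. In the alpha chain, with fewer counts, it was 12.02 to 14.5%, 13.3 to 14.6% and 14.1 to 17.6%. Over all V segments it was 5.49 to 5.65%, 4.97 to 5.97% and 6.60 to 9.17%, where each pair across the groups differed by more than each pair within a group. The mean was 7.56% across and 5.48% within groups, a gap of 2.08 percentage points that included the smaller gamma part with IL-33.

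**Figure D5:**
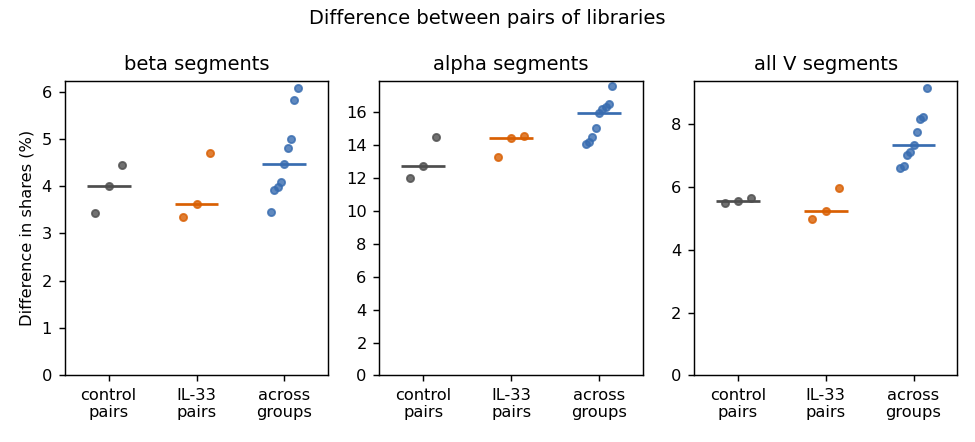
Difference in V segment shares (%) for each of the 15 pairs of libraries, in the beta chain, the alpha chain and over all V segments. Points are pairs of control libraries, pairs of IL-33 libraries and pairs across the groups, and lines are medians. Only over all V segments do the pairs across groups lie wholly above those within groups.

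Between replicates the beta shares differed by amounts from near counting error to above it. A chi-square per segment near 1 is what counting error alone would leave. For the 17 beta segments with 100 to 5000 counts in a pair it was 1.16 to 2.08 within groups and 1.23 to 4.24 across them, whereas over all genes in the same range of counts it was 2.48 to 2.90 within and 8.59 to 11.2 across groups. Over all genes every replicate pair lay above 1. Levels within this range were not matched, so these values do not rank the spread of beta segments against that of all genes. The median biological coefficient of variation was 0.0755 for the beta segments tested and 0.0658 for all genes tested. Whether the replicates came from separate cultures was not tested. For the 8 to 11 alpha segments in this range of counts the chi-square per segment was 0.902 to 2.27 within and 2.33 to 4.58 across groups. With Trav15-1-dv6-1 left out it was 0.530 to 2.24 within groups, with a median of 1.58, and 0.392 to 4.33 across groups, with a median of 1.31.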

How the data were processed

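RNA of 6 libraries of DNT cells was measured, 3 per group as the labels give them. Per the file headers the authors deposited read counts for each gene and library without normalization, and 1 column of signal, the mean of counts over size factors, which was not used. The submitters' notes name Bowtie 0.12.2 and build mm8. The counting program, annotation and strand setting are not given, and how reads across a V to J joint were counted is unknown. The labels name a TruSeq kit and the paper's methods a NEBNext kit. Identifiers were matched to GENCODE M21 (GRCm38), with 26072 of 26128 given a symbol, and sequences are from its transcripts.

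Counts were filtered (edgeR filterByExpr, minimum count 10, minimum total 15), scaled by TMM and compared by edgeR's quasi-likelihood test (robust, two-sided, no covariates) with Benjamini-Hochberg adjustment over 14671 genes. The thresholds are those of the study. With 3 against 3 libraries no exact permutation p can go below 0.1, so none is given. Shares are counts of a segment over the V counts of its chain, and segments were named by rank of share, by the adjusted p and from the lists. Members and lists were chosen with earlier results of these data known. A gene of the marker lists is not reported here. Alternatives were DESeq2 1.42.0, limma-voom (limma 3.58.1), other size factors, filters and scalings, copies summed, a replicate block and each library left out. The fit was tested on simulated data. Versions were R 4.3.3, edgeR 4.0.16 and Python 3.11.15.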

Additional observations from a re-analysis of the deposited data

How the results depend on the processing

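The number of V segments with an adjusted p under 0.05, 5 as reported, was 3 in DESeq2 and 2 with the V counts of the chain as library size, and 2 to 7 with 1 library left out. The number past both thresholds, 2 as reported, was 1 in DESeq2, 1 with the V counts of the chain as library size, 1 with the copies of alpha segments summed, and 1 to 4 with 1 library left out. With the replicate number as a block these numbers were 4 and 2, the lost call being Trbv12-2 (adjusted p = 0.0565), and among the marker genes the block also ended the call of Sox13 (0.0611). The labels give the groups the same numbers without tying them to a mouse or day. Deviations of same-numbered libraries correlated by 0.0116, 0.0032 and 0.0107, so the numbers were not taken as pairs, although each library correlated best with its own number. The gap between pairs across and within groups, 2.08 percentage points, ran from 1.67 to 2.31 with 1 library left out. The summed level of each chain moved by less than the spread between replicates under the other scalings tried. For the 24 V segments named that did not pass, 332 alternative fits gave the opposite sign in 33 and a call in 2, both for Trbv1. The beta shares rest on 5628 to 6504 counts per library and the delta shares on 47 to 79, so only wide differences in delta segments could be seen, and 65 of the 141 segments were too low to be tested. Reads shared by near-identical alpha copies cannot be placed from a count table.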
